A study of Mus musculus with 6 samples.

Results

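The genes described here are 9 transcription factors that set whether a macrophage precursor becomes an osteoclast, the bone-resorbing cell: 6 that promote this fate (Nfatc1, Mitf, Tfe3, Tfeb, Prdm1 and Spi1) and 3 that restrain it (Irf8, Bcl6 and Rbpj). They were taken by gene symbol from a table of 15982 genes, in which all 9 were present with 1 entry each. RNA came from primary mouse bone marrow-derived macrophages of a control genotype (Ctrl, 3 libraries) and of a genotype labelled a conditional knockout (Bub1 cKO, 3 libraries), which the series' design text calls specific to myeloid cells. Bub1 is a kinase of the mitotic checkpoint. Both genotypes had 3 days of M-CSF at 20 ng/ml, the growth factor of macrophages, and then 2 days in which RANKL at 50 ng/ml, the cytokine that starts osteoclast formation, was added to the same dose of M-CSF. The sources used here do not give the Cre line, the alleles of the control mice, or the strain, sex and age of the animals. Nothing in the labels says whether the 3 libraries of a genotype came from separate mice or cultures, so p-values measure the spread between libraries, which may be technical.

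RANKL signalling through NF-κB and AP-1 induces Nfatc1, whose protein is moved to the nucleus by the calcium-dependent phosphatase calcineurin and then acts on its own promoter. NFATc1 works with PU.1 (the product of Spi1) and with the MiT factors MITF, TFE3 and TFEB, which bind a shared E-box, on genes of bone resorption and of the lysosome. Opposing factors hold this programme back in macrophages: IRF8 binds NFATc1 and blocks its activity, BCL6 occupies promoters of osteoclast genes, and RBP-J, the DNA-binding partner of Notch, limits the response to inflammatory cytokines. Blimp1 (the product of Prdm1), which NFATc1 induces, represses Irf8 and Bcl6 and so opens the way for the programme.

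The deposited data hold 1 expression value per gene and genotype, read as TPM (transcripts of a gene per length, scaled to a fixed total), with a log2 change, a standard error, a statistic and p-values from the authors' test of Bub1 cKO against Ctrl. Because no values per library were used here, there is no SD over libraries, and the precision of a change is taken from the authors' standard error. A gene counts as called where the authors' adjusted p is under 0.05. Every gene has 2 estimates of change: the deposited log2 change is that of the group values with 1 TPM added to each, while the statistic times its standard error gives the change that the test itself estimated. The second is called the test's own log2 change below, and its 95% interval was computed from the deposited statistic and standard error. Bub1 itself, on chromosome 2, was at 6.73 TPM (Ctrl) and 5.32 TPM (Bub1 cKO) per the authors' deposited table (adjusted p = 0.985). This value does not check the labels, because 3' tags can lie outside the deleted exons, which the sources used here do not name.

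The cells carried the markers of the labelled type and of early osteoclasts. All 10 macrophage markers and all 10 osteoclast markers had a mean of at least 1 TPM. Summed per the authors' deposited table, osteoclast markers went from 1987 TPM in Ctrl to 2298 TPM in Bub1 cKO. This list includes Nfatc1 (48.7 and 73.3 TPM per the authors' deposited table), which is 1 of the 9 factors, so the sum is not separate from them. Macrophage markers went from 2651 to 1257 TPM, and nearly all of this fall lay in Lyz2 alone (2141 and 762 TPM). Lyz2 was the 1 macrophage marker of 10 called (adjusted p = 0.00033 per the authors' deposited table), beside 0.181% of all genes. Of these 10 markers 8 had a negative and 2 a positive statistic, and Cd68 rose from 260 to 306 TPM per the authors' deposited table. Among markers of other marrow cells, the statistic was positive in 5 of 5 erythroid and 11 of 11 neutrophil markers present. Of these 2 and 1 were called, beside 0.181% of all genes. It was positive in 49.6% of all genes whose mean reached 1 TPM, as that of only 6 of the 11 neutrophil markers did. The signs of the 5 below that mean carry little weight. For the neutrophil marker Ltf the group values went the other way, from 12.3 to 6.74 TPM per the authors' deposited table. The erythroid markers summed to 19.6 and 358 TPM, with Klf1 and Epor among those absent from the table, and the neutrophil markers summed to 102 and 241 TPM, with Ly6g absent, per the authors' deposited table. Alas2, Elane, Camp and Retnlg were listed at 0 in Ctrl. B-lineage, T and NK, dendritic, mast cell and stromal markers stayed at or below 5.34 TPM for any single gene. Several of the 9 factors are also made by such cells, and the part of cell makeup in the values below was not tested. In these bulk samples, fewer cells of a type, less RNA per cell and a change of a single gene such as Lyz2 cannot be told apart.

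None of the 9 factors was called between the genotypes, beside 0.181% of all genes per the authors' deposited table (29 of 15982). At an unadjusted p under 0.05 there was 1 of 9, Nfatc1, beside 6.29% of the 10881 genes whose mean reached 1 TPM, as that of all 9 factors did. At an adjusted p under 0.1 there was again 1 of 9, Nfatc1, beside 0.275% of all genes. For the other 8 the 95% interval of the change held 0. Levels, which TPM gives per transcript length, fell in the same order in both genotypes: Spi1, Rbpj, Nfatc1, Mitf, Prdm1, Tfe3, Irf8, Tfeb and Bcl6. In a 3' tag library reads do not scale with length, so dividing by length lowers the values of long transcripts. Without values per library it could not be tested whether neighbours in this order differ.

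**Figure D1:**
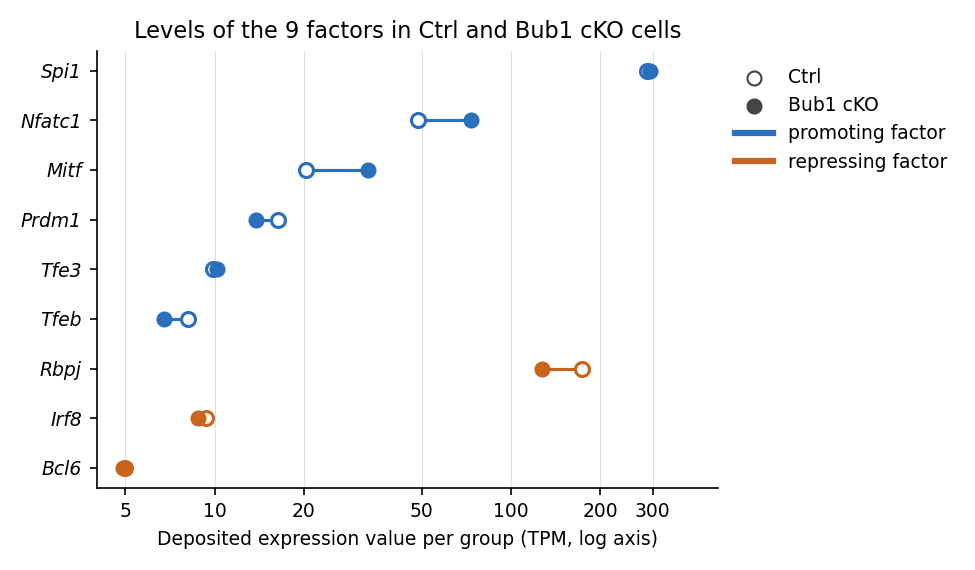
Deposited expression value (TPM, log axis) of each of the 9 factors in Ctrl (open circles) and Bub1 cKO (filled circles), 1 value per genotype, with promoting factors in blue and repressing factors in orange. Nfatc1 (48.7 and 73.3 TPM) and Mitf (20.4 and 32.8 TPM) show wide gaps to the right and Rbpj (173 and 127 TPM) to the left, while the 2 points of Spi1, Tfe3, Irf8 and Bcl6 nearly coincide.

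Nfatc1, the master regulator of osteoclast formation (ENSMUSG00000033016.15), stood at 48.7 TPM (Ctrl) and 73.3 TPM (Bub1 cKO) per the authors' deposited table. Its value was thus higher in Bub1 cKO, by 1.51 times. The log2 change was 0.58 and the statistic 3.67, with 0.163 as standard error, per the authors' deposited table. The unadjusted p was 0.00024 and the adjusted p 0.094 per the authors' deposited table, which placed Nfatc1 at rank 41 of 15982 genes by p but did not pass the threshold. The test's own log2 change was 0.60, with a 95% interval from 0.28 to 0.92, or 1.21 to 1.89 times. Both estimates of the change lay within 0.109 standard errors of each other. The standard error was below the median of 0.28 for the 1627 genes with a mean between 0.5 and 2 times that of Nfatc1. Globin, neutrophil and macrophage markers moved in the same comparison, as given above, and their part in this value was not tested.

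The MiT factors came next in the circuit. Mitf, which drives genes of the osteoclast and the lysosome (ENSMUSG00000035158.15, chromosome 6, 97807052 to 98021349, plus strand, GRCm38), was at 20.4 TPM (Ctrl) and 32.8 TPM (Bub1 cKO) per the authors' deposited table. This gave Mitf the largest log2 change of the 9 per the authors' deposited table, 0.66, but its statistic was only 1.63 (standard error 0.212, adjusted p = 0.985). For Mitf the test's own log2 change was 0.34, with an interval from -0.07 to 0.76. Its 2 estimates differed by 1.5 standard errors, and the cause was not tested. GENCODE lists 8 transcripts for Mitf, which start from several promoters.

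Tfe3, a relative of Mitf that acts on the same E-box (ENSMUSG00000000134.17, chromosome X, 7762560 to 7775202, plus strand), was at 9.85 and 10.2 TPM per the authors' deposited table. The log2 change of 0.04 and the statistic of -0.49 per the authors' deposited table have opposite signs, so no direction can be given for Tfe3. Tfeb, the MiT factor best known as the regulator of lysosome formation (ENSMUSG00000023990.18, chromosome 17, 47737030 to 47792419, plus strand), was at 8.13 and 6.75 TPM per the authors' deposited table. Its test's own log2 change was -0.23, with the widest interval of the 9 factors, from -1.32 to 0.86. A change of Tfeb to less than 0.401 or more than 1.82 times its Ctrl level lies outside this interval, and smaller changes could have been missed. As levels, Mitf stood at 2.07 times Tfe3 in Ctrl and 3.23 times in Bub1 cKO, and at 2.50 and 4.86 times Tfeb. These ratios have no error here, and their change follows the deposited rather than the test's own change of Mitf.

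Spi1 (ENSMUSG00000002111.8, chromosome 2, 91082390 to 91115756, plus strand) encodes PU.1, a factor that precursors need for both macrophage and osteoclast fate. Spi1 had the highest TPM value of the 9, a rank that division by length can affect. It was at 288 TPM (Ctrl) and 295 TPM (Bub1 cKO) per the authors' deposited table, above 97.3% of all genes by its mean. The change estimated by the test was 0.08 on the log2 scale, with the narrowest interval of the 9 factors, from -0.17 to 0.32. A level of Spi1 above 1.25 or below 0.890 times that of Ctrl lay outside this interval. Spi1 lies on the chromosome of the targeted gene Bub1 (127801122 to 127831865).

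Prdm1, which encodes the repressor Blimp1 (ENSMUSG00000038151.13, chromosome 10, 44437177 to 44528501, minus strand), was at 16.3 TPM (Ctrl) and 13.8 TPM (Bub1 cKO) per the authors' deposited table. The deposited log2 change was -0.23 and the test's own -0.03, with an interval from -0.52 to 0.45 and an adjusted p of 0.992 per the authors' deposited table. Prdm1 thus had a lower value in Bub1 cKO, against the direction of Nfatc1, with a difference far inside its error.

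**Figure D2:**
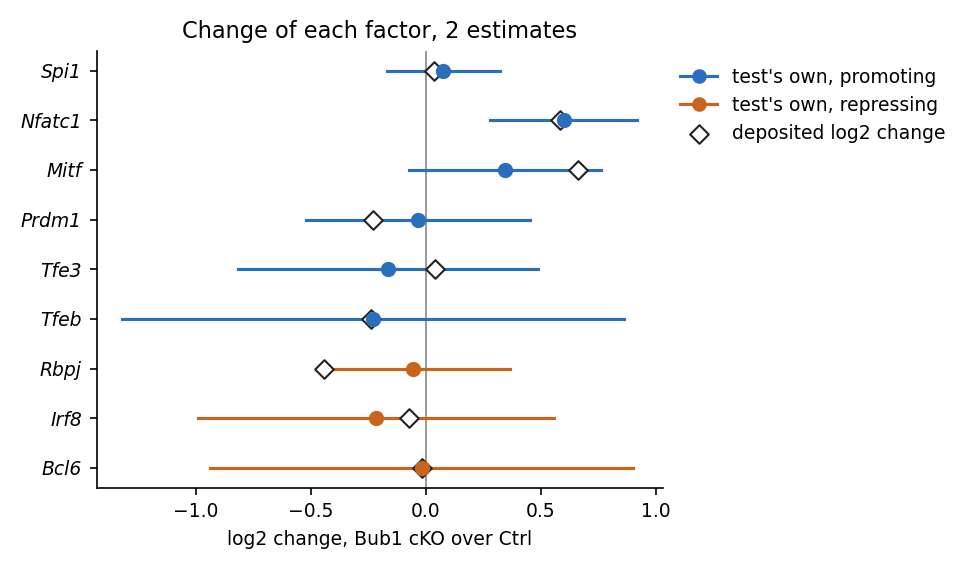
Change of each factor between genotypes on the log2 scale (Bub1 cKO over Ctrl), with the test's own change as a filled circle, its 95% interval as a line, and the deposited log2 change as an open diamond. The interval of Nfatc1 (0.28 to 0.92) lies to the right of 0, and those of the other 8 factors cross 0.

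The repressing factors showed no opposite movement that passed a test. Irf8, which keeps precursors in the macrophage state (ENSMUSG00000041515.9, chromosome 8, 120736358 to 120756694, plus strand), was at 9.33 TPM (Ctrl) and 8.82 TPM (Bub1 cKO) per the authors' deposited table. For Irf8 the test's own log2 change was -0.22, with an interval from -0.99 to 0.56. The annotation places the gene model Gm20388 over Irf8 on the same strand. Gm20388 was at 4.10 and 1.35 TPM per the authors' deposited table, so the split of reads between them is uncertain.

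Bcl6 (ENSMUSG00000022508.5, chromosome 16, 23965052 to 23988852, minus strand) had the lowest TPM value of the 9, at 4.98 and 4.92 TPM per the authors' deposited table. Its test's own log2 change was -0.02, with an interval from -0.94 to 0.90, so a change to 0.522 or to 1.87 times the Ctrl level was at the edge of what this measurement bounds. Rbpj (ENSMUSG00000039191.12, chromosome 5, 53466152 to 53657362, plus strand) was at 173 TPM (Ctrl) and 127 TPM (Bub1 cKO) per the authors' deposited table. That log2 change of -0.44 was the largest negative one of the 9, yet the statistic was -0.27 and the unadjusted p 0.79 per the authors' deposited table. The test's own log2 change of Rbpj was -0.06, with an interval from -0.48 to 0.36. Its 2 estimates differed by 1.79 standard errors, the widest gap of the 9 factors. GENCODE lists 12 transcripts of Rbpj and 2 processed pseudogenes copied from it, neither of which has an entry in the table, so reads of Rbpj may be shared with these copies. Whether transcripts or copies bear on the gap was not tested.

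Mitf and Rbpj were the 2 of 9 factors whose estimates differed by more than 1 standard error. The same held for 14.4% of the 7157 genes whose mean reached 5 TPM. For these 2 genes the group values alone would give a change of 1.61 times and 0.734 times, against 1.27 and 0.961 times in the test. Signs were opposite in 1 of the 9, Tfe3, and in 13.9% of those 7157 genes.

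**Figure D3:**
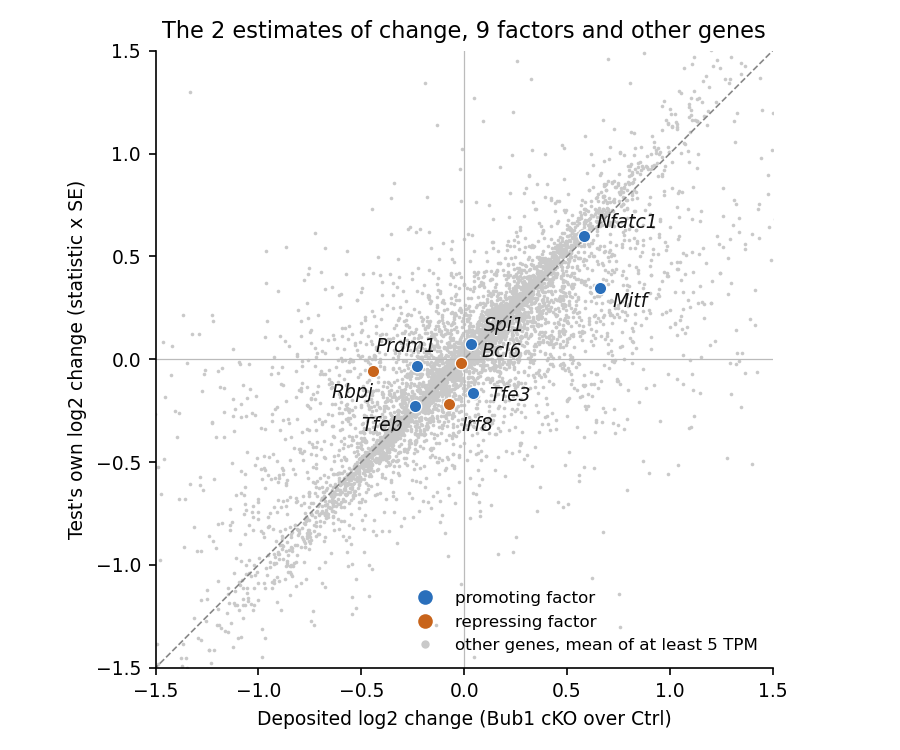
The test's own log2 change (statistic times standard error) against the deposited log2 change for the 9 factors (blue promoting, orange repressing) and for other genes whose mean reached 5 TPM (grey), with equality as the dashed line. Nfatc1 (0.58 deposited, 0.60 test's own) lies on the line, Mitf (0.66 and 0.34) below it and Rbpj (-0.44 and -0.06) above it.

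Set side by side, the promoting factors had a median log2 change of 0.04 (range -0.24 to 0.66) and the repressing factors one of -0.07 (range -0.44 to -0.02). The median over all genes was -0.01. By the test's own change the medians were 0.02 and -0.06. Of the 6 promoting factors, the statistic was positive in 3 and negative in 3, and it was negative in all 3 repressing factors. It was positive in 49.6% of the genes whose mean reached 1 TPM. The difference between the medians comes with no test, and Nfatc1 and Mitf alone make up the upper end of the promoting side. Set against each repressor, the value of Nfatc1 was 5.22 times that of Irf8 in Ctrl and 8.31 times in Bub1 cKO, 9.76 and 14.9 times that of Bcl6, and 0.281 and 0.576 times that of Rbpj. The last ratio rests in part on the deposited change of Rbpj, which the test's own change does not share. For Prdm1 the ratio to Irf8, a gene Blimp1 represses, was 1.75 in Ctrl and 1.56 in Bub1 cKO.

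Genes acting on Nfatc1 held the 2 called genes of all the pathway lists examined, both members of the AP-1 family, beside 0.181% of all genes called. This list was chosen with earlier results of these data known, so the presence of these 2 genes on it is no separate evidence. Jdp2, a factor that osteoclast formation requires, rose from 149 to 239 TPM, and Fosl2, an AP-1 subunit, rose from 25.3 to 37.9 TPM per the authors' deposited table. Their log2 changes were 0.68 and 0.56, with adjusted p of 0.007 and 0.022 per the authors' deposited table. Of the 20 genes in this list 18 had a mean of at least 1 TPM, and 3 of these were higher at an unadjusted p under 0.05 (background 3.08% higher) and 0 lower (background 3.21% lower). The other was Dyrk1a, a kinase that promotes the export of NFAT from the nucleus, at 13.7 and 46.2 TPM per the authors' deposited table. The deposited log2 change of Dyrk1a was 1.68, while the test's own was 0.64 (adjusted p = 0.985 per the authors' deposited table). Junb, another AP-1 subunit, was at 91.3 and 81.2 TPM per the authors' deposited table. Tnfrsf11a, the RANKL receptor, was at 50.4 and 56.4 TPM with a statistic of -0.19, and Fos, an AP-1 subunit that Nfatc1 induction needs, was at 43.4 and 44.5 TPM with a statistic of -0.05, per the authors' deposited table. Group values and statistics thus have opposite signs, so no direction can be given for Tnfrsf11a and Fos, which were chosen after their values were seen.

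Targets of NFATc1 had mostly positive statistics. Of 13 listed genes 12 were in the table, all with a mean of at least 1 TPM, and 10 had a positive and 2 a negative statistic. At an unadjusted p under 0.05, 4 were higher and 0 lower, beside 3.08% and 3.21% of all genes whose mean reached 1 TPM. The authors' test called 0, beside 0.181% of all genes. The median log2 change of the 12 was 0.37, beside -0.01 over all genes. Ocstamp, which precursors need to fuse, was at 11.1 and 22.1 TPM per the authors' deposited table (adjusted p = 0.373, log2 change 0.94, standard error 0.329). Ctsk, the collagen-degrading protease cathepsin K, was at 537 and 696 TPM, and Acp5, the phosphatase TRAP, at 531 and 639 TPM per the authors' deposited table. Itgb3, the β3 integrin of the sealing zone, was at 8.20 and 12.0 TPM per the authors' deposited table. Mmp9, a gelatinase and the target of highest mean on the list (though below Ctsk in Bub1 cKO), had values in the other direction, at 688 and 657 TPM (log2 change -0.07, statistic -0.46) per the authors' deposited table. These genes overlap with the osteoclast markers used above and were chosen with earlier results of these data known.

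Targets of the MiT factors were mixed. All 25 listed genes had a mean of at least 1 TPM, with 16 positive and 9 negative statistics and a median log2 change of 0.12. Rragd, a GTPase of nutrient sensing chosen after its values were seen, reached this mean only through Bub1 cKO (0.193 and 3.36 TPM per the authors' deposited table). At an unadjusted p under 0.05, 5 of the 25 were higher and 1 lower (background 3.08% and 3.21%), and 0 were called by the authors' test (background 0.181%). Beside Ctsk and Acp5, the higher ones were Tcirg1, the proton pump subunit of the resorbing membrane, at 78.9 and 100.3 TPM, with Neu1 and Atp6v1h, a lysosomal sialidase and a further pump subunit, per the authors' deposited table. Neu1 was at 6.83 and 9.65 TPM and Atp6v1h at 25.7 and 37.3 TPM per the authors' deposited table. The lower one was Gpnmb, a glycoprotein of osteoclasts and macrophages that MITF induces, at 443 and 361 TPM per the authors' deposited table (standard error 0.097, log2 change -0.29). Gpnmb and Ctsk, both on the MiT list, thus had values on opposite sides in Bub1 cKO.

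Both target lists held 4 genes in common, Acp5, Ctsk, Clcn7 and Atp6v0d2, and RefSeq promoter windows (GRCm38.p6, 250 bases before to 50 after the start) were matched for the first 3. They are shown because these genes are on both target lists. For Acp5 and Clcn7, which have several start sites, the window with the most matches is given. Capitals mark matches on either strand to the MiT E-box (CATGTG or CACGTG), the NFAT core (GGAAA), the PU.1 core (GAGGAA) and the RBP-J core (TGGGAA), of which the NFAT and RBP-J letters can overlap. The windows are chr3:95498960-95499259 (plus strand) for Ctsk, chr9:22130549-22130848 (minus strand) for Acp5 and chr17:25133141-25133440 (plus strand) for Clcn7.
Ctsk: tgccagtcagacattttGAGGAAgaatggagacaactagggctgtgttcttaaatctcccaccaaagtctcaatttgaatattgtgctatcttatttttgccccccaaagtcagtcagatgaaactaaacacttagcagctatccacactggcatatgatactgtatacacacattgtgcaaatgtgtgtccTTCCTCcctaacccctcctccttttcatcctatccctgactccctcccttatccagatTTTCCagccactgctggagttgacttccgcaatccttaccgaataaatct
Acp5: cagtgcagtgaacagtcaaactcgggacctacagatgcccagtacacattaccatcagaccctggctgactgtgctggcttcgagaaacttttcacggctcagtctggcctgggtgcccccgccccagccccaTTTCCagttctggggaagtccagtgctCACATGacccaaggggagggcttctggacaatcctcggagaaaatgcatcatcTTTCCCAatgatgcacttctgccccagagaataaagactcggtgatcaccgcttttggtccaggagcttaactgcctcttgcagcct
Clcn7: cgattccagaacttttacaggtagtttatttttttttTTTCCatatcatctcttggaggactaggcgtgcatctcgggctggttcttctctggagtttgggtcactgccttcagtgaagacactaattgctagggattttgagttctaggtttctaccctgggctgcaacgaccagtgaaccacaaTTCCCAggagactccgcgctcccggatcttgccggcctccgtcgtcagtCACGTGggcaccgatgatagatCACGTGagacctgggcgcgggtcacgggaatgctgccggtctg
Clcn7, the chloride transporter that acts with the proton pump, held the palindrome CACGTG at 15 bases before and again at 7 bases after the start. Its level was 20.6 TPM (Ctrl) and 23.6 TPM (Bub1 cKO) per the authors' deposited table (statistic 0.57). Acp5 held 1 E-box, 2 NFAT cores and 1 RBP-J core, and Ctsk held 2 PU.1 cores, 1 NFAT core and no E-box of these letters in this window. An E-box was present in 44.4% of the 27 windows of MiT targets, which came from 21 of the 25 listed genes. It was present in 20.4% of the 32851 promoter windows counted as background. The NFAT core was in 72.7% of the 11 windows of NFATc1 targets, which came from 6 of the 13 listed genes. Among background windows it was in 61.3%. Windows of a gene with several start sites were counted separately, so they are not independent. The PU.1 core was in 18.2% of the windows of NFATc1 targets (2 of 11). It was in 14.8% of those of MiT targets (4 of 27), beside 28.3% of background windows. Counted per gene, a share that has no like background here, it was in 2 of 6 NFATc1 targets and 4 of 21 MiT targets. The RBP-J core was in 27.3% of windows of NFATc1 targets, 29.6% of those of MiT targets and 25.6% of background windows. A match is a run of letters and no measured binding.

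Genes that depend on PU.1 and on IRF8 had mostly negative statistics. Of the 19 PU.1 targets and partners, 15 had a negative and 4 a positive statistic, and the median log2 change was -0.13. Among the 18 with a mean of at least 1 TPM, 3 were lower and 1 higher at an unadjusted p under 0.05 (background 3.21% lower and 3.08% higher), and 0 were called by the authors' test (background 0.181%). The lower ones were Csf1r, the M-CSF receptor, at 116 and 96.7 TPM, Ncf1, an oxidase subunit, at 46.6 and 32.6 TPM, and Itgam, an integrin of myeloid cells, at 36.3 and 27.1 TPM per the authors' deposited table. Cd68, a lysosomal glycoprotein of macrophages, was higher at 260 and 306 TPM per the authors' deposited table. Spi1 itself, as given above, differed by 0.08 on the log2 scale of the test. These genes share members with the macrophage markers, of which 8 of 10 had a negative statistic.

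All 8 of the 11 listed IRF8-dependent genes that were in the table had a negative statistic, with a median log2 change of -0.10. Of the 7 with a mean of at least 1 TPM, 0 passed an unadjusted p of 0.05 (background 6.29%). Highest in mean TPM were Cst3, the protease inhibitor cystatin C, at 1041 and 962 TPM, and Ctss, the cathepsin of antigen presentation, at 589 and 485 TPM per the authors' deposited table. Nos2, Il12b and Tlr9 had no entry. The 8 statistics, though not all 8 group values, thus had the sign of that of Irf8, with no single difference past the threshold.

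Other repressors of osteoclast formation had negative statistics in 7 of 7 genes, none of which passed an unadjusted p of 0.05 (background 6.29%). The statistic was positive in 49.6% of all genes whose mean reached 1 TPM. Their median log2 change was -0.67, and 5 of them had a mean of at least 1 TPM. Id3, an inhibitor of helix-loop-helix factors, was at 109 and 56.5 TPM per the authors' deposited table, which is -0.93 as a log2 change. By the test itself the change of Id3 was -0.26 (interval from -0.89 to 0.36). Id2, its relative, was at 97.2 and 98.1 TPM with a statistic of -0.03 per the authors' deposited table. These have opposite signs, so no direction can be given for Id2. The list of Blimp1-repressed genes, which also holds Id3, had 2 positive and 4 negative statistics. Of its 6 genes 3 were under a mean of 1 TPM, and 0 passed an unadjusted p of 0.05 (background 6.29%).

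**Figure D4:**
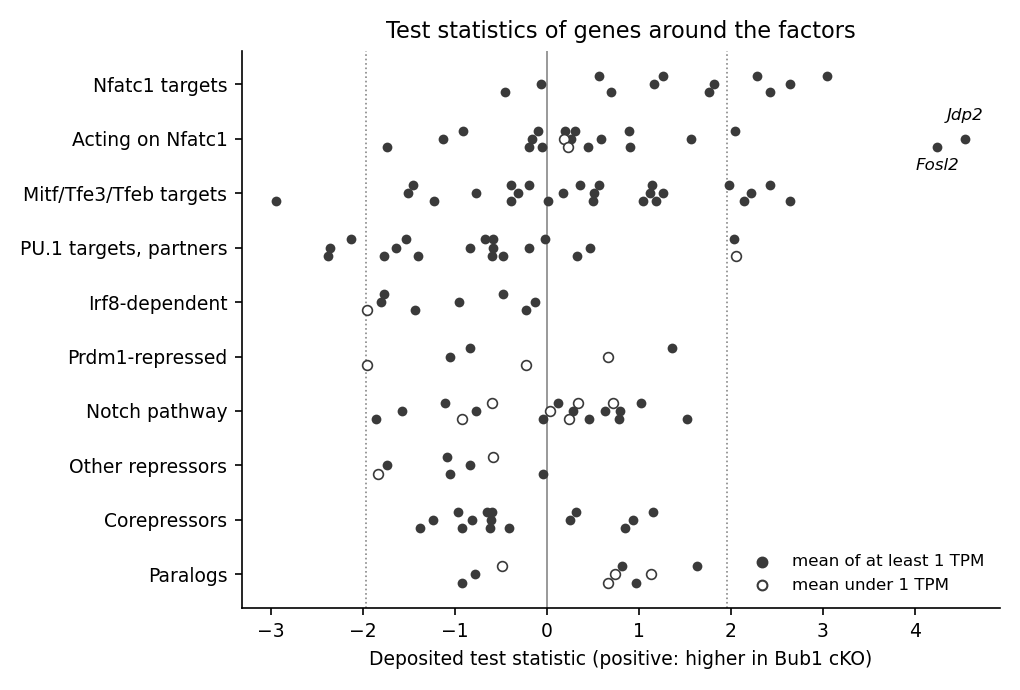
Deposited test statistic (positive where higher in Bub1 cKO) of each gene on the 10 pathway lists, 1 point per gene, filled at a mean of at least 1 TPM and open below it, with dotted lines at the unadjusted threshold. NFATc1 targets lie mostly to the right (10 of 12 positive) and PU.1 targets mostly to the left (15 of 19 negative). IRF8-dependent genes and other repressors lie to the left (8 of 8 and 7 of 7), though Id2 among the latter is at -0.03. Jdp2 and Fosl2 are the 2 genes named in the plot that passed the adjusted threshold.

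Of 24 genes of the Notch pathway around Rbpj, 19 were in the table and 13 had a mean of at least 1 TPM. The statistic was positive in 12 and negative in 7 of the 19, and 0 passed an unadjusted p of 0.05 (background 6.29%). Psenen and Psen2, subunits of the γ-secretase that releases the Notch intracellular domain, had the highest mean TPM, at 126 and 107 TPM and at 59.9 and 65.2 TPM per the authors' deposited table. Hes1, the classical Notch target (chosen after its values were seen), stood at 0.089 and 0.25 TPM per the authors' deposited table, and Hey1 and Heyl had no entry. Of the 15 corepressors and chromatin enzymes, the statistic was positive in 5 and negative in 10, and 0 passed an unadjusted p of 0.05 (background 6.29%). Ncor1, a corepressor, was at 149 and 151 TPM and Ezh2, the H3K27 methyltransferase known to silence Irf8 during osteoclast formation, at 97.9 and 106 TPM per the authors' deposited table.

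Close relatives of the 9 factors reached at most 14.2 TPM. Among 10 paralogs 9 were in the table and 5 had a mean of at least 1 TPM, with 0 past an unadjusted p of 0.05 (background 6.29%). Nfatc3 was at 9.42 and 11.7 TPM, Nfat5 at 6.40 and 6.03 TPM and Nfatc2 at 2.46 and 1.95 TPM per the authors' deposited table. Nfatc1 thus had the highest TPM value of the NFAT genes in both genotypes. Tfec, a MiT factor found mainly in macrophages and osteoclasts, was at 10.8 and 14.2 TPM per the authors' deposited table (standard error 0.44, log2 change 0.36). Spic, a relative of Spi1 found in iron-handling macrophages, was at 1.02 and 3.88 TPM with a standard error of 1.19 per the authors' deposited table.

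The genes nearest to Nfatc1 in their 2 group values, by distance on the log2(TPM + 1) scale, were Brap (distance 0.067), Pstpip1 (0.107) and Gpi1 (0.107). Brap was at 47.1 and 70.9 TPM per the authors' deposited table, with a statistic of 1.72 against 3.67 for Nfatc1, so a like pair of values came with a weaker test. Those nearest to Irf8 were Nqo1, Cfap97 and Tbcel, at distances of 0.007 to 0.022, and 54 genes lay within 0.1 of Irf8 against 1 for Nfatc1. With 2 group values per gene such likeness describes a level and a ratio, and no more.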

How the data were processed

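Libraries for 3' RNA-seq were prepared with QuantSeq, using 25 ng of RNA each, per the labels' protocols. All values come from 1 table of group values and of the authors' own comparison, headed RaNA-seq, an online analysis service. The sources used here do not give the aligner, build, annotation or test. The authors deposited 1 expression value per gene and genotype without naming its unit, taken here as TPM because the columns as deposited sum to 999891 (Ctrl) and 999954 (Bub1 cKO). CPM would sum alike, in which case levels would not be per length. The log2 column, as deposited, is the ratio of the group values after adding 1 to each (recomputed within 0.002), so it understates changes of low genes. Statistic and standard error, as deposited, are scores from a test by the authors. Their deposited p-values carry a Benjamini-Hochberg adjustment over 15982 genes, recovered from the statistic within 0.003. Library depth is unknown.

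The planned fit to values per library was replaced by the authors' test. The members and lists were chosen with earlier results of these data known. Unadjusted p-values were computed from the deposited statistic. The named genes are the 9 factors and Bub1, and from each list up to 4 genes of smallest unadjusted p under 0.05 and the 2 of highest mean, plus paralogs of at least 1 TPM and the 3 genes nearest to Nfatc1 and to Irf8. Tnfrsf11a, Fos, Rragd, Hes1, Neu1, Atp6v1h, Clcn7, Atp6v0d2, Alas2, Elane, Camp, Retnlg, Ltf, Csf3r, Gm20388 and the genes named as absent lie outside this rule and were added with their values already known. Positions come from GENCODE M21 (GRCm38). Of the table's IDs 99.5% matched it without and 91.4% with their version, so the build of the table itself is not settled. Python 3.11.15, pandas 2.3.3, SciPy 1.17.1 and matplotlib 3.10.9 were used, and the adjustment step was tested on simulated data. Alternatives were other pseudocounts, centring, the test's own change, and adjustment over fewer genes. Some named genes are not reported here.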

Additional observations from a re-analysis of the deposited data

How the results depend on the processing

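No member was called when p was adjusted over the genes that reached 1 TPM or over genes above the median in mean, where the adjusted p of Nfatc1 was 0.0652 and 0.0532, against 0.094 over all genes. With an adjusted p under 0.1 as the threshold, 1 member was called, Nfatc1. Under 4 alternatives for the log2 change (pseudocounts of 0.1 and 5, centring, the test's own change), 8 of 9 factors kept their sign, with ranges of 0.55 to 0.60 for Nfatc1, 0.34 to 0.69 for Mitf and -0.45 to -0.06 for Rbpj, and Tfe3 reversed to -0.16 with the test's own change. A pseudocount cannot change the sign of a log2 change, and centring shifted values by only 0.006 on the log2 scale. Of the 4 alternatives only the test's own change could thus reverse a factor in practice. Of 40 list counts under other filters 39 stayed the same. Counts of 0 had to stay at 0 under the filter at a mean of at least 5 TPM, so part of this agreement was fixed in advance. The count of higher PU.1 targets went from 1 to 2 with no filter on low values, through Csf3r. Precision limits the low factors most: Tfeb, Bcl6 and Irf8 had standard errors of 0.556, 0.469 and 0.395. No paired analysis was possible because the table holds 1 value per genotype, and for the same reason no replicate could be left out in turn.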
